A study of Mus musculus with 11 samples.

Results

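The mitochondrial ribosomal protein genes encode the protein parts of the ribosome that works inside mitochondria, and 78 of them were measured in the hypothalamus of male mouse offspring at P21. Members were chosen by name alone, as genes whose mouse symbol starts with Mrpl or Mrps and a number, each read by its brightest probe. All 78 such genes on the array, with 99 probes, cleared the filter, a signal well above background on 5 or more of the 11 arrays, and they were 78 of 17189 named genes tested. The array labels gave 5 CO and 6 HFD offspring of C57BL/6N mice. Dams of CO offspring, called SD in the array titles, ate standard chow, and dams of HFD offspring ate a high-fat diet before conception and through gestation and lactation. Litters of both groups were trimmed to the same size shortly after birth, and the methods allow littermates. The titles of the CO arrays share a leading number in sets of 3 and 2, whose meaning the labels do not give, and no label tells which offspring shared a dam, so the p-values reflect only how far these samples scatter, which may be partly technical.

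The mitochondrial ribosome translates the few messages of the mitochondrial genome, all of which encode parts of the respiratory chain and the ATP synthase. Its RNA comes from mitochondrial DNA, but every one of its proteins is encoded in the nucleus, made in the cytosol and imported. The small subunit binds the message and reads the codons, and the large subunit joins the amino acids and passes the growing chain through an exit tunnel to the inner membrane. Many of its proteins descend from bacterial ribosomal proteins, and others are found in mitochondria only. Neurons depend on this machinery because their firing is costly in ATP.

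Levels are the log2 signal of a probe relative to the 75th percentile of its array, so 0 is the signal of that percentile and 1 unit is a doubling. Differences are HFD minus CO on this scale, tested with limma at a threshold of 0.05 on p-values adjusted after Benjamini and Hochberg across 31796 probes. Folds put the size of the log2 difference on the linear scale, as the larger over the smaller geometric mean of the groups. Levels of different genes come from different probes and were not set against each other.

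The arrays of the groups differed in ways that touch every value. Each group lay on 2 slides of its own, and the groups were scanned 337 days apart with different extraction protocols, so that diet, slide and scan session cannot be told apart. Between 82.5 and 85.7% of spots were well above background on the CO arrays and between 71.8 and 77.4% on the HFD arrays. Probes for spike-in control RNA read 0.67 log2 units higher on the HFD arrays relative to the percentile (p = 0.00216 by a two-sided exact permutation test, which is its smallest possible value with 5 against 6 arrays). Of 18 hypothalamic markers, 16 were well above background on all arrays, Sim1 and Otp being the exceptions. Of 7 neuronal markers 5 were higher in HFD offspring, as were 3 of 5 thalamic markers. Lower were 5 of 7 oligodendrocyte, 7 of 8 striatal, 4 of 7 microglial and 3 of 3 blood markers, where 22% of all named genes were higher and 43.8% lower. Several lists were mixed, with 2 microglial markers higher and 1 thalamic marker lower. The hypothalamic list had 5 higher and 2 lower, and the 5 endothelial markers had 3 higher and 2 lower. Of 7 astrocyte markers 2 were lower, as were 2 of 4 of the choroid plexus. The 4 pituitary markers tested had 1 higher and 1 lower. The summed linear signal of the striatal list, in multiples of the 75th percentile, ran from 18.5 to 109 in CO and from 11.9 to 35.8 in HFD offspring. That of the neuronal list ran from 96.4 to 110 and from 134 to 143, and that of the oligodendrocyte list from 346 to 390 and from 295 to 363. The groups did not overlap for blood (92.6 to 116 and 58.7 to 78.9) or microglia (20.9 to 25 and 15.6 to 18.7). The part of these differences in the values of the members was not tested. In whole tissue, fewer cells of a type and less RNA per cell cannot be told apart.

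Promoter sequence is shown for the Mrps18 family, whose members moved in opposite directions, and for Mrpl47 and Mrps27, the other members furthest up and down among those well above background on all arrays. The windows were taken from RefSeq on GRCm38.p6 and run 5′ to 3′ along the gene, from 250 bases before the start of the gene to 50 after it. Capitals mark the letters CCGGAAG, a core of ETS family sites to which the nuclear respiratory factor GABP belongs, GCGCATGCG, a core of sites of the respiratory factor NRF1, and AAGATGGCG, a core of YY1 sites, on either strand.
Mrps18a, chr17:46110754-46111053, plus strand: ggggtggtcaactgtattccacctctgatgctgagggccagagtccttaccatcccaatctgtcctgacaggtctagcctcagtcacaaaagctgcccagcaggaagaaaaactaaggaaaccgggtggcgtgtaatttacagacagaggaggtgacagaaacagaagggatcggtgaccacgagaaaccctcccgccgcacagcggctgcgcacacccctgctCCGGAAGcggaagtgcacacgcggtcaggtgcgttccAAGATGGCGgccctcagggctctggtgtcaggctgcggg
Mrps18b, chr17:35916391-35916690, minus strand: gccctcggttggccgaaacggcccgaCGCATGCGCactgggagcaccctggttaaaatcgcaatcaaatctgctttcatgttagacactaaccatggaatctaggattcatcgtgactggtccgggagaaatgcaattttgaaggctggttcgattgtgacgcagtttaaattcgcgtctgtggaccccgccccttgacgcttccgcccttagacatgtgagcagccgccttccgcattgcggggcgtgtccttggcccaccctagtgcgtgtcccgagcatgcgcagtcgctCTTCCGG
Mrps18c, chr5:100798509-100798808, plus strand: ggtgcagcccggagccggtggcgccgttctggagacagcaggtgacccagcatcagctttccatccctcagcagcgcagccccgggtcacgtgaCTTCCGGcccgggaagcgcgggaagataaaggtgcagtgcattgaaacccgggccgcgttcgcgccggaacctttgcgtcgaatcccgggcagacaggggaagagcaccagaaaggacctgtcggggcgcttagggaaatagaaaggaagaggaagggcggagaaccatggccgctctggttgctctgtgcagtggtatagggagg
Mrpl47, chr3:32736706-32737005, minus strand: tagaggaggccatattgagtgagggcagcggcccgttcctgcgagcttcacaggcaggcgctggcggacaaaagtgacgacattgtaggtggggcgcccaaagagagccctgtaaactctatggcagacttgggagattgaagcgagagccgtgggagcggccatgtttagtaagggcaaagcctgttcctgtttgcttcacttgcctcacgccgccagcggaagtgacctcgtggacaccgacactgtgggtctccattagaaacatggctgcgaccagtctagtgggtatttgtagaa
Mrps27, chr13:99344536-99344835, plus strand: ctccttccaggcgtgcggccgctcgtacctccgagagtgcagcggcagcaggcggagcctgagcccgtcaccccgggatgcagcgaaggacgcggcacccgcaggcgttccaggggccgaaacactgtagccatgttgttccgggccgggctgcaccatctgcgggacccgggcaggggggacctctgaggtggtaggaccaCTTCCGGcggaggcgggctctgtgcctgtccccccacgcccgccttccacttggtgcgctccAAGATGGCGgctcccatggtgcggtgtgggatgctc

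Each of the 3 Mrps18 windows held CCGGAAG, in that of Mrps18c upstream of the start and on the opposite strand. The window of Mrps18b also held GCGCATGCG far upstream, and those of Mrps18a and Mrps27 held AAGATGGCG just after the start. No match in these windows overlapped another, and a window was counted once per motif. The window of Mrpl47 held none of them. RefSeq windows were found for 69 of the 78 members, the others being Mrpl13, Mrpl15, Mrpl19, Mrpl38, Mrpl4, Mrpl54, Mrps28, Mrps34 and Mrps35. Among those 69, CCGGAAG occurred in 36.2%, GCGCATGCG in 10.1%, AAGATGGCG in 11.6% and at least 1 of them in 50.7%. Over the first window of all 27025 genes in the table these shares were 9.12%, 1.81%, 1.49% and 11.8%. Over the 13621 genes tested on the arrays that had a window they were 14.3%, 2.92%, 2.47% and 18.5%. At least 1 of the motifs occurred in 5 of 11 windows of members that were higher in HFD offspring, in 11 of 19 of those lower and in 19 of 39 of those not called. A match is a run of letters and not evidence of binding, and these shares were not tested.

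Of the 78 members, 12 were higher in HFD offspring and 23 lower, while 43 missed the threshold, and these counts became 14 higher and 16 lower when arrays were scaled to their median and 1 higher and 74 lower when they were scaled to the spike-in RNA. The share called was 44.9%, where it was 65.7% of all named genes (22% higher and 43.8% lower) and 67.1% of all probes. The median difference was -0.07 over the members and -0.17 over all named genes, which means that the midpoint of all genes was itself below 0 on this scale. No member changed at least 2-fold, as 15.6% of all named genes did with an adjusted p under the threshold. Of the members, 53 (67.9%) stayed within 0.25 log2 units of 0, a range that held 35.5% of all named genes. It also held 67.5% of the cytosolic ribosomal proteins and 67.5% of the respiratory chain and ATP synthase subunits. Of these similar groups 45.8% and 43.4% were called, with 0 and 1 genes called at 2-fold or more. The small changes were thus not particular to the members. The HFD values lay wholly above the CO values for 7 members and wholly below for 16, and overlapped for 55. The 23 lower and the 16 wholly below include Mrpl21, which passed the filter through the CO group. Without Mrpl21 these counts were 22 and 15. Among all named genes 46.6% had groups without overlap.

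**Figure D1:**
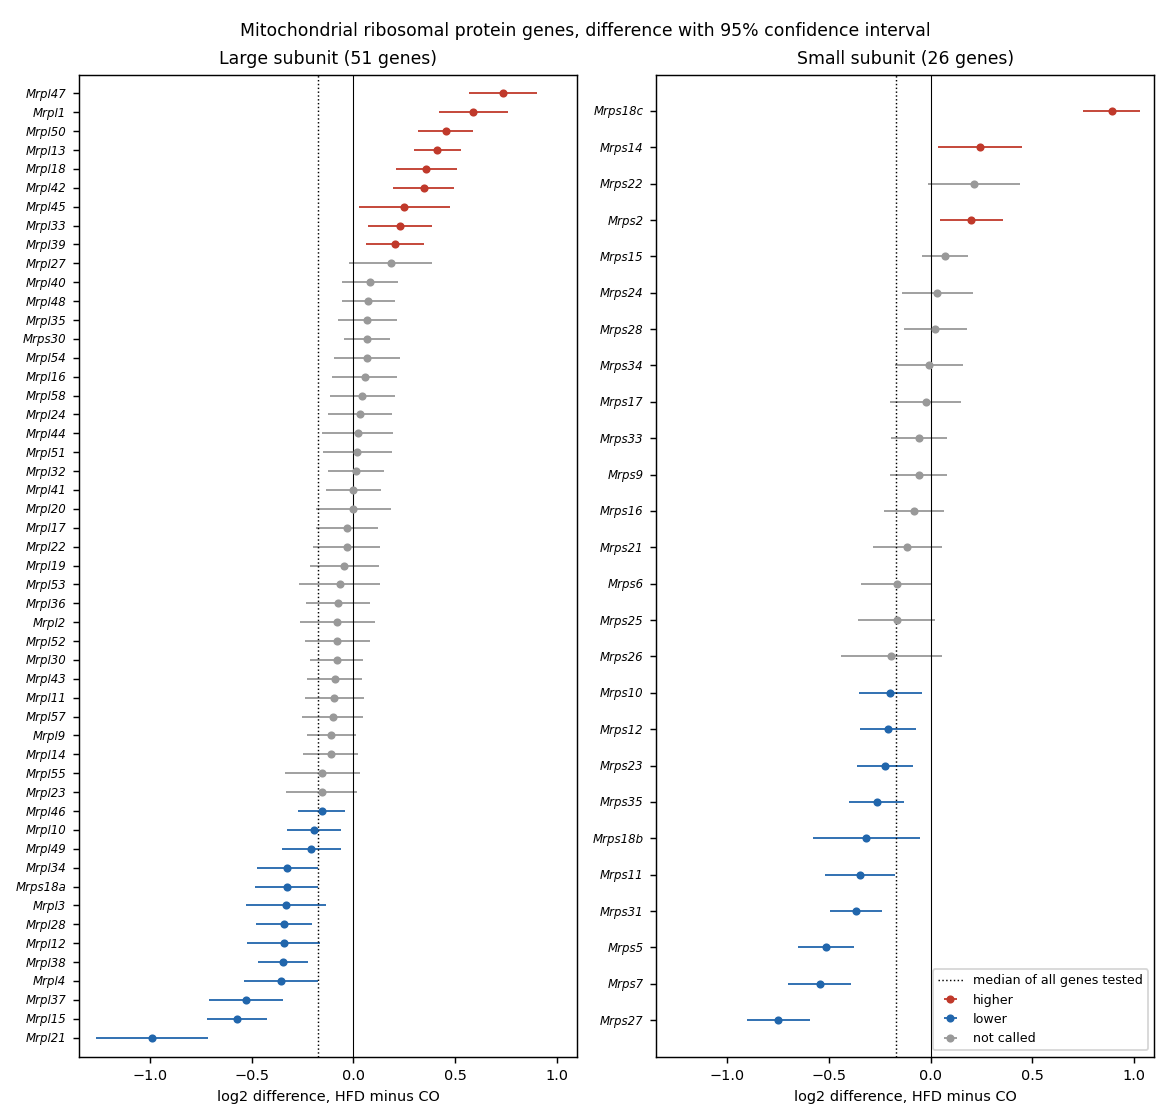
Log2 difference (HFD minus CO, x axis) of each mitochondrial ribosomal protein gene of the large subunit (51 genes, left) and the small subunit (26 genes, right), with the 95% confidence interval of limma. Red points passed the test as higher, blue as lower and grey points did not pass, and the dotted line is the median of all genes tested at -0.17. On this scale 9 large subunit genes and 3 small subunit genes were higher, all of which but Mrps18c lose that call with spike-in scaling, and 13 and 10 were lower. The 13 include Mrpl21, which passed the filter through the CO group.

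The median SD of the members between samples of a group was 0.11 log2 units in CO and 0.09 in HFD offspring. Over all named genes it was 0.16 and 0.13. The spread of similar gene groups or of genes of like brightness was not compared. The largest SD of a member was 0.26, for Mrps26 in CO offspring. Expressed as the median deviation over all members, the arrays of CO offspring stood at 0.04, 0.08, 0.04, -0.08 and 0.13. Those of HFD offspring ran from -0.10 to 0.04. The groups thus overlapped in this summary, with CO array 4 below 5 of the 6 HFD arrays and HFD array 1 above 3 of the CO arrays.

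The small subunit had 26 members, of which 3 were higher and 10 lower in HFD offspring, with a median difference of -0.14, where 22% of all named genes were higher and 43.8% lower. With scaling to the median 4 were higher and 6 lower. With spike-in scaling 1 was higher and 25 were lower, as were 14317 of all 17189 named genes. The 16 proteins shared with bacteria had 3 higher and 5 lower, and the 10 found only in mitochondria had none higher and 5 lower, or 1 higher and 3 lower with scaling to the median. Where a list is given here with no gene in a direction, none was found at an unadjusted p under 0.05 on the same scaling either (limma). The 5 lower genes were Mrps27, Mrps31, Mrps18b, Mrps35 and Mrps23.

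The Mrps18 family consists of 3 genes that descend from the same bacterial protein, whose products take different places in the ribosome. Mrps18c encodes the form that sits where the bacterial protein does, on the small subunit. Its levels were 0.54, 0.39, 0.61, 0.59 and 0.44 in CO offspring and ran from 1.31 over a median of 1.4 to 1.54 in HFD offspring. Every HFD array lay above every CO array. Mrps18c was 1.85-fold higher in HFD offspring (log2 difference 0.89 ± 0.06, SE, limma adjusted p = 7.11e-07) and was the member with the greatest rise. It was also the only member that stayed higher with spike-in scaling. Mrps18b encodes a small subunit protein found in mitochondria only. Its levels were 2.21, 1.90, 2.22, 1.68 and 1.86 in CO offspring and ran from 1.48 over 1.64 to 1.93 in HFD offspring. The groups overlapped, since CO arrays 2, 4 and 5 lay within the HFD range. Mrps18b fell by 0.32 ± 0.12 (SE, limma adjusted p = 0.0341), a call that was lost under 8 alternatives. Its adjusted p was 0.0782 with quantile normalization, 0.132 with scaling to the median, and 0.0659 to 0.0855 without CO array 1 or 3 or HFD array 2, 3 or 5, where it fell by 0.26 to 0.29. A second, dimmer probe of the gene fell by 0.52 without overlap (limma adjusted p = 6.6e-05). Mrps18a, despite its name, encodes a protein of the large subunit. Its levels were 2.06, 1.85, 1.88, 1.74 and 1.85 in CO offspring and ran from 1.47 over 1.52 to 1.72 in HFD offspring. All HFD arrays lay below all CO arrays, by a narrow margin. Mrps18a fell by 0.33 ± 0.07 (SE, limma adjusted p = 0.0017).

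Mrps27, a protein found only in mitochondria that binds RNA and is needed for translation there, fell most of the members that were well above background on every array. Its levels were -1.19, -1.0, -1.21, -1.02 and -0.98 in CO offspring and ran from -1.94 over -1.85 to -1.71 in HFD offspring, with a clear gap between the groups. It was 1.68-fold lower (log2 difference -0.75 ± 0.07, SE, limma adjusted p = 4.48e-06). Mrps7, the counterpart of a bacterial protein that organises the head of the small subunit, stood at 2.94, 2.92, 3.01, 2.73 and 2.93 in CO and from 2.22 over 2.36 to 2.50 in HFD offspring. The groups did not overlap, and Mrps7 was 1.46-fold lower (limma adjusted p = 3.97e-05), with a second probe that fell by 0.75. Mrps5, the counterpart of a bacterial protein that lines the entry of the message and bears on accuracy, stood at -0.17, -0.05, -0.21, -0.17 and -0.12 in CO and from -0.83 over -0.65 to -0.52 in HFD offspring. It was 1.43-fold lower without overlap (limma adjusted p = 2.92e-05).

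Mrps31, found in mitochondria only, stood at 1.89, 1.91, 1.83, 1.78 and 1.97 in CO and from 1.41 over 1.51 to 1.59 in HFD offspring. It fell by 0.37 ± 0.06 (SE, limma adjusted p = 1.80e-04), with no overlap. Mrps11, whose bacterial counterpart lies on the platform of the small subunit, stood at -0.05, -0.20, -0.23, -0.34 and -0.17 in CO and from -0.67 over -0.58 to -0.29 in HFD offspring. HFD array 1 lay among the CO values, and the other HFD arrays lay below them. Mrps11 fell by 0.35 ± 0.08 (SE, limma adjusted p = 0.0023).

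Besides Mrps18c, the small subunit members that were higher were Mrps14 and Mrps2, both counterparts of bacterial proteins. Mrps14 stood at 0.50, 0.90, 0.55, 0.89 and 0.98 in CO and from 0.91 over 1.00 to 1.12 in HFD offspring. CO arrays 1 and 3 were low and the other CO arrays were close to or within the HFD range. The difference of 0.24 ± 0.09 (SE, limma adjusted p = 0.0395) turned to -0.43 with spike-in scaling, and was no longer called without CO array 1 (0.18, adjusted p = 0.0984) or CO array 3 (0.19, adjusted p = 0.0983). The same held without HFD array 1, 2, 4, 5 or 6, where it was 0.22 to 0.25. A second probe of Mrps14 differed by -0.08 and was not called, and the mean over its probes differed by 0.08 (adjusted p = 0.246). Mrps2 was the only gene whose probes were called in opposite directions. On its brightest probe it stood at -0.10, 0.13, -0.25, -0.05 and -0.07 in CO and from 0.07 over 0.11 to 0.25 in HFD offspring, with CO array 2 inside the HFD range. That probe was 0.20 ± 0.07 higher (SE, limma adjusted p = 0.0267) and -0.47 with spike-in scaling, and was not called without CO array 1 (0.19), CO array 3 (0.15) or HFD array 1 (0.17). Its second probe was 0.77 ± 0.09 lower without overlap (SE, limma adjusted p = 2.77e-05). A direction for Mrps2 as a gene cannot be given from these probes.

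**Figure D2:**
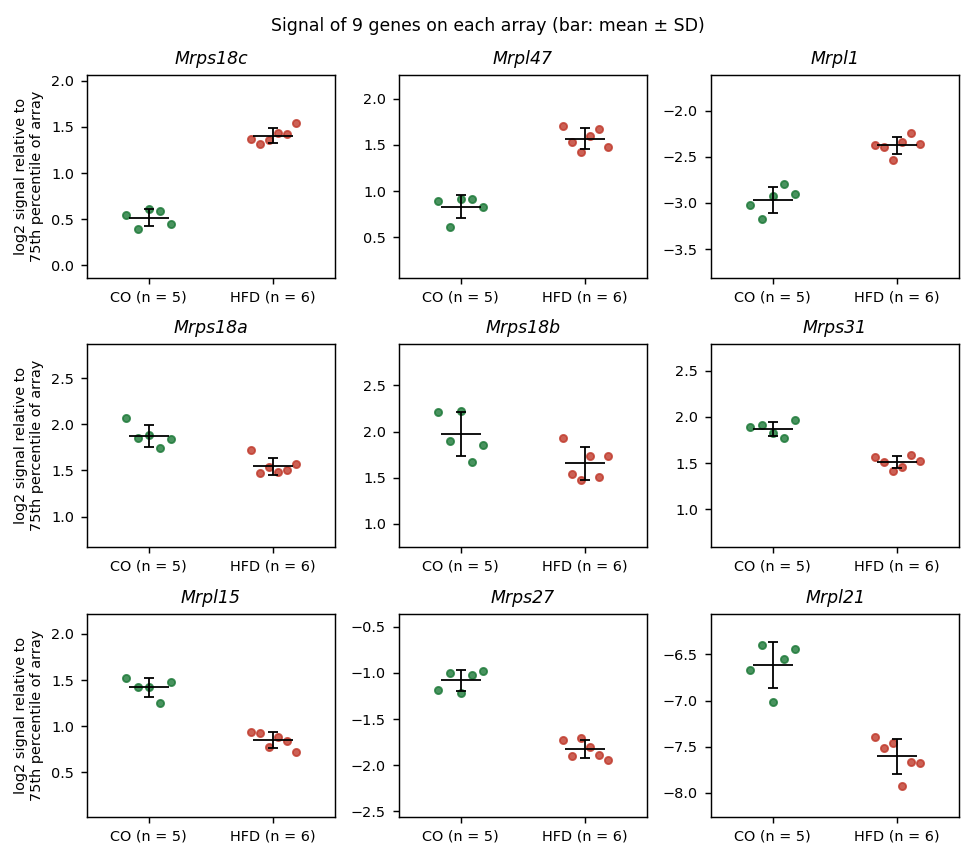
Log2 signal relative to the 75th percentile of the array (y axis, each panel spanning the same range) of 9 genes on each array of CO (green, n = 5) and HFD (red, n = 6) offspring, with the mean and SD in black. The HFD points of Mrps18c, Mrpl47 and Mrpl1 lie above all CO points, a direction that turns for Mrpl1 with spike-in scaling, those of Mrps18b overlap the CO points, and those of the other 5 genes lie below.

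The large subunit had 51 members, of which 9 were higher and 13 lower, with a median difference of -0.05. The shares over all named genes were 22% higher and 43.8% lower. With scaling to the median 10 large subunit members were higher and 10 lower, and the median difference was 0.017. With spike-in scaling none was higher and 48 were lower (limma), as were 14317 of all 17189 named genes. The 30 proteins shared with bacteria had 5 higher and 8 lower, and the 21 found only in mitochondria had 4 higher and 5 lower. Both the 13 and the 8 lower include Mrpl21, which passed the filter through the CO group.

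Mrpl47, which sits at the rim of the exit tunnel, was the large subunit member with the greatest rise. Its levels were 0.90, 0.61, 0.92, 0.91 and 0.83 in CO and ran from 1.43 over 1.56 to 1.71 in HFD offspring. The groups were well apart, and Mrpl47 was 1.67-fold higher (log2 difference 0.74 ± 0.08, SE, limma adjusted p = 9.04e-06). Its second probe was 0.57 higher, also without overlap, but with spike-in scaling the brightest probe differed by only 0.07 and was not called. The exit tunnel rim, where the nascent chain leaves for the membrane, was covered by 8 members. Mrpl47, Mrpl45 and Mrpl39 were higher and none was lower (limma), beside 22% higher and 43.8% lower among all named genes. Only 1 of the 8, Mrpl47, had groups without overlap. With spike-in scaling 0 of the 8 were higher and 7 lower, and 14317 of all 17189 named genes were lower. Mrpl45 holds the ribosome to the inner membrane. It stood at 1.32, 1.63, 1.27, 1.5 and 1.85 in CO and from 1.70 over 1.73 to 1.92 in HFD offspring. CO array 5 lay inside the HFD range. The difference of 0.25 ± 0.10 (SE, limma adjusted p = 0.0461) was -0.42 with spike-in scaling, and it was no longer called when any array but CO array 2 or CO array 5 was left out, with differences of 0.19 to 0.26 and adjusted p of 0.0594 to 0.115.

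Mrpl1 is the counterpart of the bacterial protein of the mobile stalk through which spent transfer RNA leaves. Its levels were -3.03, -3.17, -2.93, -2.79 and -2.91 in CO and ran from -2.54 over -2.37 to -2.24 in HFD offspring, without overlap. It was 1.5-fold higher (log2 difference 0.59 ± 0.08, SE, limma adjusted p = 4.83e-05) and -0.08 with spike-in scaling. The stalk on the other side, which binds the translation factors, comprises Mrpl10, Mrpl11 and Mrpl12. Mrpl12, which forms the arms of this stalk, fell by 0.34 ± 0.08 (SE, limma adjusted p = 0.0031), and Mrpl10, its base, fell by 0.20 ± 0.06 (SE, limma adjusted p = 0.0136). Mrpl11 differed by -0.09 ± 0.07 (SE) and did not pass the test. On the brightest probes HFD and CO values overlapped for all 3 stalk genes. Among all named genes 43.8% were lower. Scaling to the median left 1 of the 3 stalk genes lower. Scaling to the spike-in RNA made all 3 lower, as it did 14317 of all 17189 named genes. A second, dimmer probe of Mrpl10 fell by 0.34 ± 0.06 without overlap (SE, limma adjusted p = 2.93e-04).

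Mrpl50, found only in mitochondria, stood at 0.95, 0.91, 1.00, 1.00 and 0.88 in CO and from 1.21 over 1.44 to 1.47 in HFD offspring. It was 1.37-fold higher without overlap (limma adjusted p = 5.63e-05) and -0.22 with spike-in scaling. Its second, dimmer probe differed by 0.00 ± 0.08 (SE) and did not pass the test, so the probes of this gene disagree. Mrpl13, the counterpart of a bacterial protein of early assembly, stood at 1.77, 1.67, 1.77, 1.78 and 1.77 in CO and from 2.10 over 2.16 to 2.25 in HFD offspring. It was 1.33-fold higher without overlap (limma adjusted p = 3.69e-05), but -0.26 with spike-in scaling and 0.24 with normexp, another background correction, where it was not called (adjusted p = 0.0504).

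Mrpl18 belongs to the central protuberance, the crown of the large subunit that faces the small one. It stood at 1.45, 1.49, 1.39, 1.51 and 1.69 in CO and from 1.77 over 1.86 to 2.00 in HFD offspring. It was 1.28-fold higher without overlap (limma adjusted p = 6.79e-04), but -0.31 with spike-in scaling and 0.19 with normexp, where it was not called (adjusted p = 0.215). Mrpl38, another protein of the protuberance, moved the other way. It stood at 0.92, 1.00, 0.83, 0.86 and 0.99 in CO and from 0.51 over 0.57 to 0.63 in HFD offspring, and fell by 0.35 ± 0.06 without overlap (SE, limma adjusted p = 2.06e-04). Of the 5 members listed here for the protuberance Mrpl46 was lower too, and Mrpl40 and Mrpl48 did not pass the test. Among all named genes 22% were higher and 43.8% lower. Scaling to the median gave 1 higher and 1 lower of the 5, and normexp 0 higher and 1 lower. Scaling to the spike-in RNA made all 5 lower, as it did 14317 of all 17189 named genes.

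Mrpl42, found only in mitochondria, stood at -0.04, -0.26, -0.13, -0.33 and -0.11 in CO and from 0.11 over 0.15 to 0.32 in HFD offspring. It was 1.27-fold higher without overlap (limma adjusted p = 9.13e-04) and -0.33 with spike-in scaling. Mrpl33, a small protein shared with bacteria, stood at 3.41, 3.31, 3.34, 3.08 and 3.39 in CO and from 3.41 over 3.55 to 3.63 in HFD offspring, so that HFD array 1 touched the highest CO array. It was 1.17-fold higher (limma adjusted p = 0.0150), but -0.44 with spike-in scaling and not called with normexp (adjusted p = 0.26).

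Mrpl15, the counterpart of a bacterial protein that binds the large ribosomal RNA, stood at 1.52, 1.43, 1.43, 1.25 and 1.48 in CO and from 0.72 over 0.87 to 0.94 in HFD offspring. It was 1.49-fold lower without overlap (log2 difference -0.57 ± 0.07, SE, limma adjusted p = 1.98e-05), and its second probe was 0.49 lower. Mrpl37, found in mitochondria only, stood at -0.19, -0.29, -0.19, -0.35 and -0.26 in CO and from -0.92 over -0.86 to -0.49 in HFD offspring. It was 1.44-fold lower without overlap (limma adjusted p = 1.75e-04), and HFD array 1 lay nearest to the CO arrays. Mrpl4, whose bacterial counterpart lines the tunnel, stood at 3.86, 3.77, 3.79, 3.55 and 3.88 in CO and from 3.28 over 3.39 to 3.62 in HFD offspring. HFD array 6 lay above CO array 4, and Mrpl4 was 1.28-fold lower (limma adjusted p = 0.0027), with a second probe 0.43 lower without overlap.

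Mrpl21 had only 1 probe, near the lower limit of detection, which was well above background on all 5 CO arrays and on 1 of 6 HFD arrays. It passed the filter through the CO group and so had to be lower in HFD offspring. Its levels were -6.67, -6.39, -7.02, -6.55 and -6.44 in CO and ran from -7.92 over -7.59 to -7.40 in HFD offspring, a difference of -0.99 ± 0.13 (SE, limma adjusted p = 3.68e-05) that shrank to -0.27 with normexp background correction and was then not called (adjusted p = 0.733). Without it the members had 12 higher and 22 lower of 77.

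Mrps36, which carries a ribosomal name but serves the 2-oxoglutarate dehydrogenase complex, differed by 0.10 ± 0.08 (SE) and did not pass the test. Among the 43 members that did not pass, differences ran from -0.19 for Mrps26 to 0.21 for Mrps22. The 95% confidence interval was -0.44 to 0.05 for Mrps26 and -0.01 to 0.44 for Mrps22, both of which hold 0 as well as changes larger than those measured.

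A second probe gave another reading for 21 members. For 13 of them both probes had the same call, 7 in the same direction and 6 not called. For 7 only 1 probe was called, and only Mrps2 had calls in opposite directions. The differences of the probes had opposite signs in 6 pairs, those of Mrps2, Mrps14, Mrps25, Mrps33, Mrpl27 and Mrpl41. The median gap between the differences of the 2 probes was 0.15 log2 units, close to the median size of a member's difference, 0.16. The gap was widest for Mrps2 (0.97), Mrps25 (0.61), whose second probe was higher while its brightest was not called, and Mrpl50 (0.45).

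**Figure D3:**
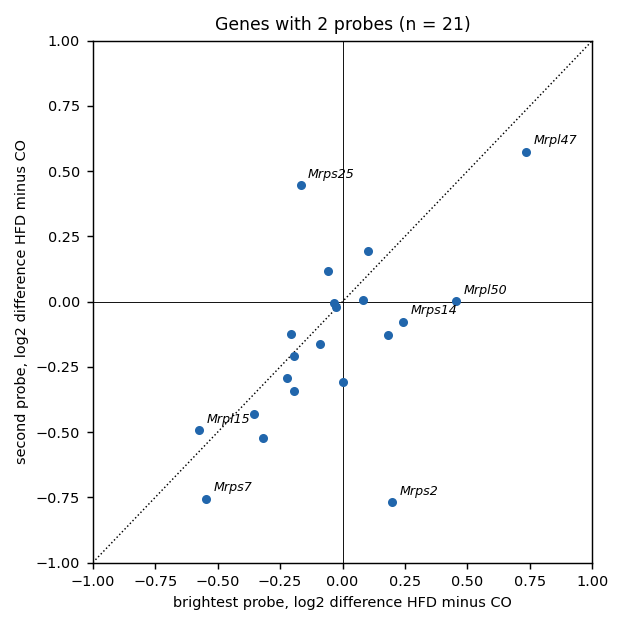
Log2 difference (HFD minus CO) of the brightest probe (x axis) and of the second probe (y axis) for the 21 mitochondrial ribosomal protein genes with 2 probes, where the dotted line marks equal differences. Mrpl47 was higher on both probes (0.74 and 0.57, of which the first falls to 0.07 with spike-in scaling), Mrps7 and Mrpl15 were lower on both, and Mrps2 lies at 0.20 and -0.77.

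Of the mitochondrial ribosomal proteins that carry other names, 5 were tested, with 1 higher and 2 lower. The shares over all named genes were 22% and 43.8%. With spike-in scaling all 5 were lower, as were 14317 of all 17189 named genes. Dap3, a GTP-binding protein of the small subunit first known from cell death, fell by 0.36 ± 0.06 without overlap (SE, limma adjusted p = 1.92e-04). Aurkaip1 fell by 0.26 ± 0.09 with overlap (SE, limma adjusted p = 0.0173). Ptcd3, an RNA-binding protein of the small subunit, was 0.33 ± 0.08 higher without overlap (SE, limma adjusted p = 0.0046), a direction that turned with spike-in scaling.

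Genes of ribosome assembly had 1 higher and 16 lower of 25 tested, with a median difference of -0.24, where 65.7% of all named genes were called and 43.8% were lower. Scaling to the median gave 1 higher and 10 lower, and spike-in scaling none higher and 24 lower (limma). Spike-in scaling also made 14317 of all 17189 named genes lower. Mettl17, needed for assembly of the small subunit, fell by 1.09 ± 0.09 (SE, limma adjusted p = 1.43e-06). Mrm2, a methyltransferase of the large ribosomal RNA, fell by 0.72 ± 0.06 (SE, limma adjusted p = 2.93e-06), and Dhx30, an RNA helicase of mitochondrial RNA granules, fell by 0.53 ± 0.05 (SE, limma adjusted p = 4.25e-06). None of these 3 genes had overlapping groups.

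Translation factors had 6 higher and 6 lower of 16 tested, beside 22% higher and 43.8% lower among all named genes. Mtrf1, a release factor homologue, was 0.94 ± 0.09 higher (SE, limma adjusted p = 4.7e-06), and Slirp, which steadies mitochondrial messages, was 0.85 ± 0.06 higher (SE, limma adjusted p = 8.14e-07). Taco1, an activator of translation of a cytochrome c oxidase subunit, fell by 0.66 ± 0.07 (SE, limma adjusted p = 1.25e-05). Genes of mitochondrial DNA and RNA handling had 8 higher and 7 lower of 18 tested. Among these Mterf2, a transcription termination factor homologue, was 1.24 ± 0.11 higher, Trmt10c, a subunit of the enzyme that trims transfer RNA, was 1.17 ± 0.11 higher and Pnpt1, an exoribonuclease, was 1.05 ± 0.11 higher (SE). With spike-in scaling the factors had 1 higher and 10 lower, and the DNA and RNA genes 3 higher and 15 lower. All 17189 named genes then had 946 higher and 14317 lower.

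The gene groups most like the members were the ribosomal proteins of the cytosol and the subunits of the respiratory chain and ATP synthase encoded in the nucleus. Of 83 cytosolic ribosomal proteins 29 were higher and 9 lower, with a median difference of 0.10, and of 83 respiratory subunits 21 were higher and 15 lower, with a median of 0.03. Among all named genes 22% were higher and 43.8% lower. With quantile normalization the cytosolic proteins had 25 higher and 19 lower and the respiratory subunits 17 higher and 22 lower, so that the majority of the latter turned, and with spike-in scaling both had 0 higher and 77 lower (limma). Spike-in scaling also made 14317 of all 17189 named genes lower. The difference between these groups and the members was not tested. The cytosolic proteins with the smallest adjusted p were Rps27a, Rpl26 and Rpl36al, with differences of 0.55, 0.45 and 0.58. Cyc1 and Uqcrc1, of respiratory complex III, fell by 1.11 and 0.58.

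**Figure D4:**
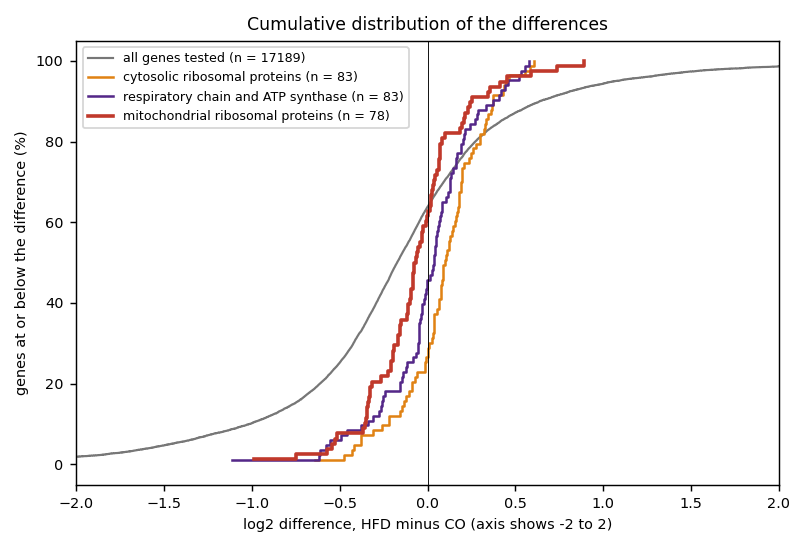
Share of genes (y axis, percent) at or below each log2 difference (HFD minus CO, x axis, shown from -2 to 2) for all 17189 genes tested, 83 cytosolic ribosomal proteins, 83 respiratory chain and ATP synthase subunits and 78 mitochondrial ribosomal proteins. The curve of the mitochondrial ribosomal proteins rises more steeply than that of all genes, and their medians are -0.07 and -0.17, both of which shift down to -0.74 and -0.84 with spike-in scaling. The share within 0.25 log2 units of 0 was 67.9% for these proteins and 35.5% for all genes. It was 67.5% for the cytosolic proteins and 67.5% for the respiratory subunits.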

How the data were processed

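Hypothalamic RNA of 5 CO and 6 HFD offspring was hybridized to Agilent single-color mouse arrays. The authors deposited scanner output, and the values used here are background-subtracted spot intensity values (linear) from Feature Extraction, version 10.8 in the submitters' processing notes and 10.7.3.1 in the file headers. How they normalized the arrays against each other is not stated in these sources. No 2 arrays held identical values.

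From these, log2 of the processed signal minus the 75th percentile of each array was computed in R 4.3.3. Control spots and those the software marked as outliers were dropped, and replicate spots averaged. Accessions named 26369 of 39429 mouse probes through the RefSeq annotation of GRCm38.p6. Probes well above background on 5 or more of the 11 arrays were compared with limma 3.58.1 (lmFit, eBayes, two-sided, Benjamini-Hochberg adjustment), with statmod 1.5.0 for the slide block and data.table (version 1.17.8). The method was tested on simulated data with independent noise and no slide or scan effect. That test cannot show how such effects bear on these results. The number of arrays limits the precision.

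Named members were the 10 largest increases and 10 largest decreases that passed, the Mrps18 family, members whose probes were called in opposite directions or not detected on every array, and, per companion list, the 3 genes of smallest adjusted p, of which 1 is not reported here. Other members named in passing were chosen after their values were seen. Members, lists and tests were chosen with earlier results of these data known. Ribosomal protein kinases and binding proteins were left out of the cytosolic list after the files were read. Alternatives covered scaling, background correction, filters, probe choice, blocks, Rank Product and leaving out each array.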

Additional observations from a re-analysis of the deposited data

Results flagged for a closer look

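In 48 groups of values, those of the named members and of the median over all members in CO and in HFD offspring, 4 had an array whose gap to its nearest neighbour was large for the range of the group. Chance gives such a gap in about 1 of 20 groups. The level of Mrpl13 on CO array 2 was 1.666, below the other CO arrays at 1.768 to 1.778. That of Mrpl50 on HFD array 3 was 1.214, with the others at 1.411 to 1.465. That of Mrpl45 on HFD array 6 was 1.919, with the others at 1.705 to 1.782, and that of Mrps11 on HFD array 1 was -0.285, with the others at -0.67 to -0.543. No array appeared in more than 1 of these 4 cases.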

How the results depend on the processing

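Scaling to the spike-in RNA left 1 member higher and 74 lower, with a median of -0.742 where that of all probes moved to -0.846. This scaling shifts all probes of an array alike, so the members' offset of 0.103 from all probes cannot change under it. That offset was 0.044 with normexp and 0.042 with the filter on all arrays. Under the spike-in scaling Mrpl1 (-0.081), Mrpl50 (-0.216), Mrpl13 (-0.257), Mrpl18 (-0.312), Mrpl42 (-0.325), Mrpl45 (-0.42), Mrps14 (-0.427), Mrpl33 (-0.442) and Mrps2 (-0.472) changed sign. Mrps2 (-0.286) also did so when the probes of a gene were averaged. Rank Product at a percentage of false positives below 0.001 called 0 members higher and 0 lower, where limma called 12 and 23. At an unadjusted p under 0.05 it gave 3 and 1, and over all probes it called 829 higher and 605 lower of 31702. A minimum of 2-fold left 0 higher and 0 lower. With the replicate block, the replicate number of the labels over 5 arrays a group, 7 were higher and 19 lower. Deviations of same-numbered arrays from their group means had correlations of -0.087 to 0.224. Arrays of different numbers were not compared in this way, so these values cannot tell whether the numbers pair the samples. Leaving out each array in turn gave 9 to 14 higher and 21 to 28 lower, with a median of -0.1 to -0.042. Over 23 named members, 458 values under all settings kept direction and call, 60 lost the call and 10 changed sign. Mrpl13, Mrpl18, Mrpl33 and Mrpl21 lost it with normexp, an alternative chosen after seeing the data, which used the median signal because the files hold no mean signal. Naming genes by a gene name column was not run, since the files hold none. The slide as a random block (correlation -0.036) changed no call of a named member.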
